A study of Mus musculus with 14 samples.

Results

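Gap junction genes of the cochlear supporting cell (SC) were followed across 2 ages and Notch inhibition, together with the channel gene Panx1. The 5 genes, Gja1, Gjb2, Gjb6, Gjc3 and Panx1, were taken by symbol from the count tables, and all 5 were among the 35976 gene symbols counted. RNA was sequenced from EGFP+ cells sorted from cochlear explants of Lfng-EGFP mice, which carry EGFP under the control of Lfng in a bacterial artificial chromosome transgene, so that the sorted population is set by the activity of a gene that is itself a Notch target. Explants at P0 (P0 to P1 in the culture protocol) or P6 were kept for 24 hours with compound E (CompE), a γ-secretase inhibitor that blocks Notch cleavage, at 2 µM, or with an equal volume of DMSO. The groups held 4 CompE and 4 DMSO libraries at P0 and 3 and 3 at P6. Every group carries the reporter, every library comes from cultured and dissociated tissue, and organs were pooled before dissociation.

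The 14 libraries held 19415066 to 44430063 counts, so that 1 count was worth between 0.0225 and 0.0515 RPM (reads of a gene per 1000000 counted in the library). The summed level of 8 supporting cell markers was 5963 to 12088 RPM at P0 and 2372 to 7697 RPM at P6, and all 8 were detected in every library. Genes were called at a 2-fold change or more together with an edgeR adjusted p no higher than 0.01. Of 6 Notch target genes, 5 fell with CompE at P0 by this rule, where 1.22% of all genes tested were called. At P6 all 6 had a log2 change below 0, with a median of -1.73, and 0 were called, where 0% of all genes were. Lfng, whose regulatory sequence drives the sorted EGFP, was not called at P0 in the fit without pairing. With the replicate number as a block Lfng was called lower with CompE at P0 (log2 -1.54, SE 0.23, edgeR adjusted p = 0.00537). It was lower with CompE in 4 of 4 pairs with the same number. Its mean at P0 was 2791 RPM ± 1123 (SD, n = 4) with DMSO and 912 RPM ± 162 (SD, n = 4) with CompE. Mesenchyme markers summed to 903 to 1067 RPM with DMSO and 1163 to 1329 RPM with CompE at P0, and to 895 to 3947 RPM at P6, with Lum the most abundant, and the highest sum at P6 in each treatment was in replicate 3. Macrophage markers summed to 64.1 RPM in P6 CompE replicate 3 and 25.8 RPM in P6 DMSO replicate 3, against at most 7.99 RPM elsewhere. Each batch held libraries of 1 age, so age and batch cannot be told apart.

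Connexins are the subunits of gap junctions. A connexin hexamer in one cell docks with a hexamer in its neighbour, and the channel formed carries ions and small metabolites between cells. In the cochlea, SCs are coupled in this way, the network is known for taking up and redistributing potassium around hair cells, and loss of Gjb2 or Gjb6 function is a known cause of deafness. Pannexins are related in membrane topology but mostly form channels of a single membrane, through which ATP can leave the cell.

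Gjb2 encodes connexin 26 and Gjb6 encodes connexin 30, the main connexins of the cochlea. Both genes lie on the reverse strand of chromosome 14 in GRCm38, Gjb2 at chr14:57098600-57104702 and Gjb6 at chr14:57123303-57133611, with 18600 bp between them. Gja1 (connexin 43) is at chr10:56377330-56402513 on the forward strand, Gjc3 (connexin 29) at chr5:137953461-137963098 on the reverse strand and Panx1 (pannexin 1) at chr9:15002128-15045478 on the reverse strand. No other annotated gene overlaps any of the 5. The 250 bases upstream of the RefSeq start (GRCm38.p6) of the neighbouring pair are shown because these 2 genes carry most of the connexin signal described below. Capitals mark the GC box GGGCGG or its reverse complement, and each sequence is written 5′ to 3′ on the gene's own strand.

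Gjb2, chr14:57104703-57104952, reverse strand: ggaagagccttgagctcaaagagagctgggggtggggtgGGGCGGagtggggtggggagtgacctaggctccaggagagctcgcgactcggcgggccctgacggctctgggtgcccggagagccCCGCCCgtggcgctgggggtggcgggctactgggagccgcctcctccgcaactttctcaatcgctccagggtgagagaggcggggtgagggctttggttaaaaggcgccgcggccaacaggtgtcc

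Gjb6, chr14:57133612-57133861, reverse strand: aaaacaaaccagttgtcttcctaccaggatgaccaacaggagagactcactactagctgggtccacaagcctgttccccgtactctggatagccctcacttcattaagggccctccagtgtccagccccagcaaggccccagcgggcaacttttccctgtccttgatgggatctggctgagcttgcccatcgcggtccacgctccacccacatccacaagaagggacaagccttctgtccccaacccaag

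The Gjb2 promoter had 69.2% G or C and 18 CG dinucleotides, with 2 GC boxes. The Gjb6 promoter had 56.8% G or C, 5 CG dinucleotides and no GC box. Over the same window of 32851 mouse promoters the medians were 52.4% and 6, and 32.7% held a GC box on either strand. Sites of transcription factors downstream of Notch were also searched on both strands. TGGGAA, the core of the RBPJ site, was present in Panx1 alone among the 5 genes and in 21.6% of all promoters. None of the 5 held CACGTG (6.02% of all promoters), CACGCG (7.62%) or TATAAA (12.4%).

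Between genes, levels were compared per kilobase of exon (RPKM). Gjb2 was the highest of the 5 in each group, at 692 RPKM ± 133 (SD, n = 4) in P0 DMSO libraries and 1425 RPKM ± 258 (SD, n = 3) in P6 DMSO libraries. Gjb6 was next, at 100.0 RPKM ± 16.3 (SD, n = 4) at P0 and 337 RPKM ± 79.3 (SD, n = 3) at P6. The ranges of these 2 genes did not overlap in any group. Panx1 followed at 4.32 RPKM ± 0.928 (SD, n = 4) and 3.06 RPKM ± 0.679 (SD, n = 3), and Gja1 at 1.20 RPKM ± 0.359 (SD, n = 4) and 2.43 RPKM ± 3.17 (SD, n = 3). Panx1 and Gja1 overlapped in P6 DMSO libraries, where their order turned when the longest transcript was used as the length (3.22 RPKM for Panx1 and 6.41 RPKM for Gja1). Gjc3 was the lowest in each group, at 0.0969 RPKM ± 0.0777 (SD, n = 4) and 0.369 RPKM ± 0.395 (SD, n = 3), and overlapped Gja1 in P6 DMSO libraries.

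Together, Gjb2 and Gjb6 made up 98.3% ± 0.313 (SD, n = 4) of the summed connexin level per kilobase in P0 DMSO libraries and 99.3% ± 0.405 (SD, n = 3) in P6 DMSO libraries. With CompE these shares were 98.3% ± 0.253 (SD, n = 4) and 99.5% ± 0.149 (SD, n = 3). Gjb2 alone held 85.8% ± 0.934 at P0 and 80.4% ± 0.529 at P6 with DMSO. Among the connexin and pannexin genes outside the 5, Gjc1 (connexin 45) stood highest, at 8.09 RPKM ± 1.90 (SD, n = 4) in P0 DMSO libraries. Gja3, Gjb1 and Panx2 were among those that reached a mean of at least 1 RPM in some group.

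**Figure D1:**
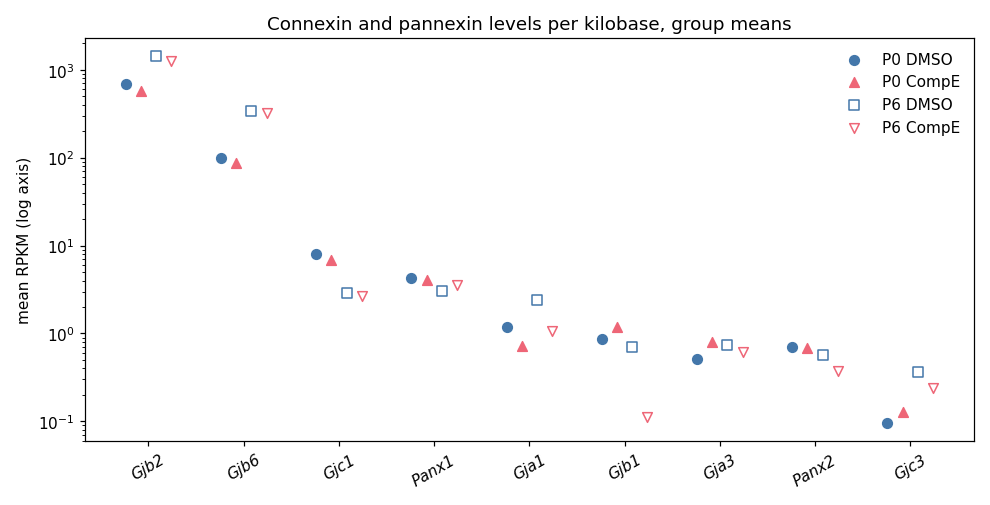
Mean RPKM (log axis) of the 5 members and of Gjc1, Gjb1, Gja3 and Panx2, one marker per group of 3 or 4 libraries. Gjb2 and Gjb6 stand more than 10 times above the next gene in every group, and both are higher at P6 than at P0.

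Gjb2 and Gjb6 were higher at P6 than at P0 with either treatment. Gjb2 was at 1881, 1989, 1453 and 1333 RPM in P0 DMSO replicates 1 to 4 and at 3155, 4138 and 2992 RPM in P6 DMSO replicates 1 to 3. No P6 library was as low as the highest P0 library. The change in DMSO libraries was 2.18-fold (95% CI 1.63 to 2.92, log2 1.12, SE 0.20, edgeR adjusted p = 0.00131). In CompE libraries Gjb2 went from 1783, 1359, 1141 and 1239.7 RPM to 3006, 3345 and 2661 RPM, again without overlap, a 2.41-fold rise (95% CI 1.80 to 3.23, log2 1.27, SE 0.20, edgeR adjusted p = 0.000612).

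Gjb6 rose too. Its P0 DMSO libraries held 295, 306, 259 and 209 RPM and its P6 DMSO libraries 782, 1146 and 775 RPM, which did not overlap. The rise was 3.57-fold (95% CI 2.56 to 4.96, log2 1.83, SE 0.22, edgeR adjusted p = 8.53e-05). With CompE the values were 281, 238, 197 and 209.9 RPM at P0 and 738, 1115 and 701 RPM at P6, also without overlap, and the rise was 4.09-fold (95% CI 2.93 to 5.70, log2 2.03, SE 0.22, edgeR adjusted p = 4.55e-05). Thus 2 of the 5 members were called higher in DMSO libraries, where 3.74% of all genes tested were called higher and 3.38% lower, and 2 of 5 in CompE libraries, where the shares were 3.54% and 2.89%. How many of all genes lack overlap between the ages was not counted. With DMSO 6074 of 17090 genes had an unadjusted edgeR p under 0.05 between the ages, and with CompE 6098 had.

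Replicate 2 was the highest P6 library for both genes in both treatments. Without P6 DMSO replicate 2 the log2 change of Gjb2 was 0.93 (adjusted p = 0.00907), below 2-fold, and Gjb6 stayed called. In a fit of the 7 DMSO libraries alone Gjb2 had a log2 change of 1.13 (adjusted p = 0.0104), just past the threshold. Without both libraries of P6 replicate 3, where the mesenchyme and macrophage markers were highest, the DMSO changes were 1.26 for Gjb2 (adjusted p = 0.00158) and 1.98 for Gjb6 (adjusted p = 0.000145) on the log2 scale. That fit keeps P6 DMSO replicates 1 and 2, where mesenchyme markers summed to 895 and 2448 RPM, against 903 to 1067 RPM in P0 DMSO libraries. The part of mesenchyme and macrophage markers in the result was not tested. Of the 8 supporting cell markers, 6 had a log2 change below 0 between the ages with DMSO and 2 above. Their median was -1.07, and 2 were called lower, where 3.38% of all genes tested were. With CompE 6 were below 0 and 2 above, the median was -0.84, and 3 were called lower, against 2.89% of all genes. The part of the supporting cell markers in the result was not tested. The summed level of 7 lateral wall markers was 8.85 to 15.2 RPM in P0 DMSO and 22.7 to 37.5 RPM in P6 DMSO libraries, with Kcne1 at 0 counts in all of them. Pmel was the most abundant, at 7.38 to 11.6 RPM and 9.95 to 16.1 RPM. The 5 of these markers that were tested all had a log2 change above 0 between the ages, and none was called. Their median was 4.23 with DMSO and 3.16 with CompE. The part of these markers in the result was not tested. In bulk samples, fewer cells of a type and less RNA per cell cannot be told apart.

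**Figure D2:**
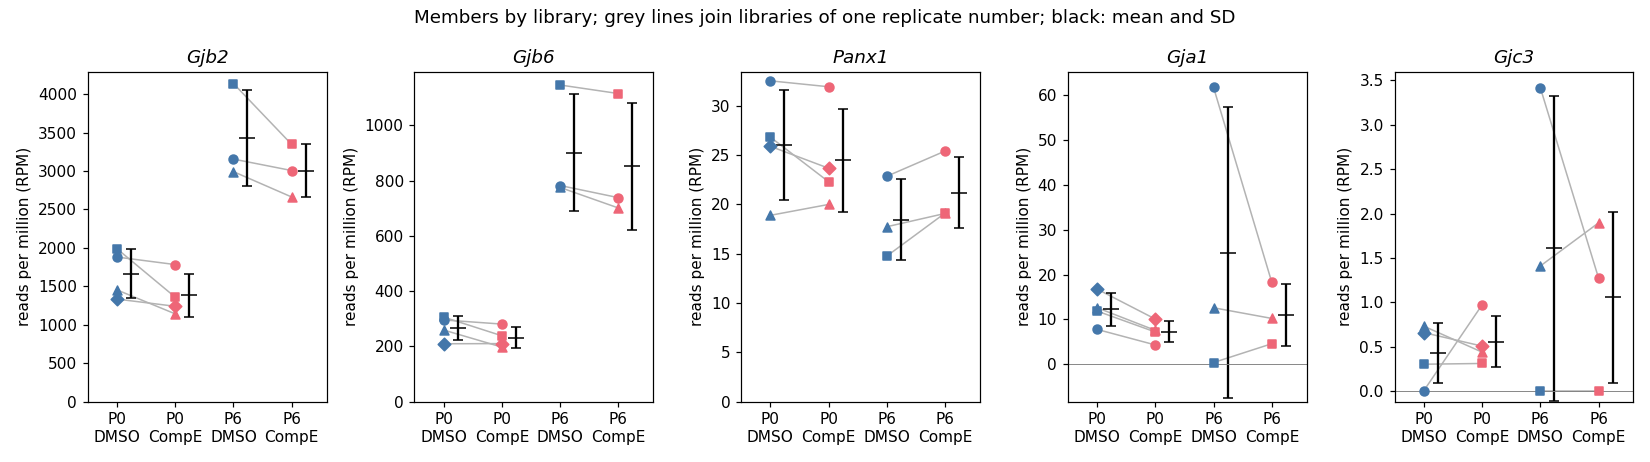
RPM of the 5 members in each of the 14 libraries (linear axes, 1 panel per gene). Circle, square, triangle and diamond are replicates 1 to 4, grey lines join CompE and DMSO libraries of one number, and black bars are mean and SD. Gjb2 and Gjb6 separate by age without overlap, which was not counted over all genes, while Gja1 spans 0.396 to 61.8 RPM at P6 with DMSO.

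Per kilobase, Gjb6 stood at 14.5 ± 1.01 (SD, n = 4) for every 100 of Gjb2 in P0 DMSO libraries and at 23.5 ± 1.32 (SD, n = 3) in P6 DMSO libraries. The single libraries lay at 14.1, 13.8, 16.04 and 14.1 at P0 and at 22.3, 24.9 and 23.3 at P6, so the ages did not overlap. The difference in log2 ratio was 0.69, with an exact two-sided permutation p of 0.0571, the smallest that 3 against 4 libraries allow (0.171 after Benjamini-Hochberg adjustment over 3 tests). With CompE the level of Gjb6 for every 100 of Gjb2 was 15.2 ± 0.713 (SD, n = 4) at P0 and 25.3 ± 4.17 (SD, n = 3) at P6. CompE and DMSO libraries overlapped at both ages (exact permutation p = 0.371 at P0 and 0.7 at P6, where 3 against 3 cannot go below 0.1).

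**Figure D3:**
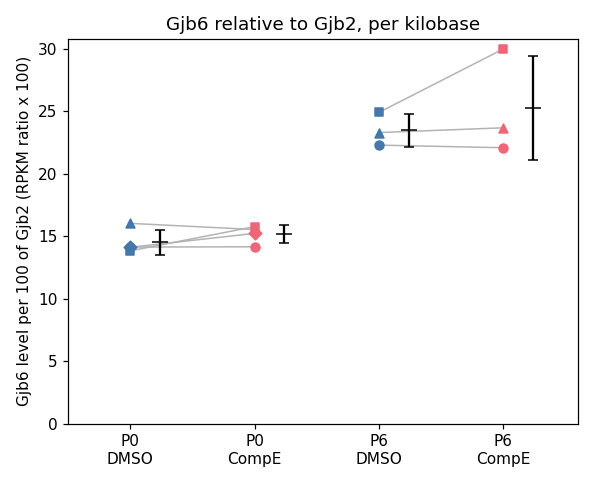
Level of Gjb6 for every 100 of Gjb2, both per kilobase, in each library (axis from 0, markers, lines and bars as in the plot of the members). P0 libraries lie between 13.8 and 16.04 and P6 libraries between 22.1 and 29.99.

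Notch inhibition changed none of the 5 genes past the threshold at either age. At P0, 0 of 5 were called, against 1.22% of all genes tested. Without the replicate block 0 of 5 had an edgeR adjusted p of at most 0.05, where 617 of 15937 genes had. With the block 1 of 5 had, Gja1, and the number over all genes at 0.05 was not counted for that fit. At P6, 0 of 5 were called by edgeR, where 0% of all genes were (289 of 15322 had an unadjusted p under 0.05, and DESeq2 called 13, none of the 5). No member was called for a difference of the response between the ages, where edgeR called 0% of genes (811 of 17090 had an unadjusted p under 0.05, and DESeq2 called 34).

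Gja1 had the largest fold change of the 5 at P0. The astrocyte and heart connexin was at 4.32, 7.21, 7.58 and 10.1 RPM in CompE replicates 1 to 4 and at 7.79, 11.9, 12.6 and 16.8 RPM in DMSO replicates 1 to 4. The groups overlapped, but the CompE library was the lower one in 4 of 4 pairs with the same number, at 0.554, 0.606, 0.5998 and 0.601 of its DMSO partner. Without the pairing the log2 fold change was -0.79 (SE 0.32, edgeR adjusted p = 0.295). With the replicate number as a block it was -0.80 (SE 0.14, edgeR adjusted p = 0.0117), which also missed the call (2.2% of all genes were called in this fit). An exact sign-flip test over the 4 pairs gave p = 0.125, the smallest it allows. Gja1 was low throughout, at 140 to 511 counts per P0 library.

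Gjb2 was lower with CompE in 4 of 4 pairs at P0 and in 3 of 3 at P6. The log2 changes were -0.31 (SE 0.17, edgeR adjusted p = 0.495) at P0 and -0.18 (SE 0.21, edgeR adjusted p = 1.00) at P6, and the 95% intervals of the fold change were 0.620 to 1.04 and 0.625 to 1.25. Gjb6 was lower in 3 of 4 pairs at P0 and in 3 of 3 at P6, with log2 changes of -0.25 (SE 0.15, edgeR adjusted p = 0.537) and -0.07 (SE 0.28, edgeR adjusted p = 1.00). Its intervals were 0.671 to 1.05 and 0.607 to 1.5004. Changes of 2-fold lie outside these intervals for both genes at both ages. With the replicate number as a block at P0, the log2 change of Gjb2 was -0.31 (95% CI -0.570 to -0.0474, edgeR adjusted p = 0.179). That of Gjb6 was -0.25 (95% CI -0.485 to -0.00483, edgeR adjusted p = 0.248). In the blocked fit at P6 Gjb2 was at -0.17 (95% CI -0.363 to 0.0229, edgeR adjusted p = 0.694). Gjb6 was at -0.08 there (95% CI -0.268 to 0.112, edgeR adjusted p = 0.827).

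The marker sums differed between the treatments at P0 as well. The 8 supporting cell markers, Lfng among them, summed to 6930 to 12088 RPM with DMSO and 5963 to 7260 RPM with CompE, where 1 DMSO library, replicate 1, lay within the CompE range. The 6 hair cell markers summed to 100.1 to 246 RPM with DMSO and 193 to 535 RPM with CompE, which overlapped, with Myo7a the most abundant and none at 0. The sums of the 6 mesenchyme markers did not overlap and were higher with CompE, while 5 of these 6 genes had a fold change below 0 and none was called. The part of these markers in the CompE values of Gja1, Gjb2 and Gjb6 was not tested.

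Panx1 had the narrowest span of the 5 over the 14 libraries, from 14.8 to 32.5 RPM, a factor of 2.20. It was at 32.5, 26.8, 18.9 and 25.9 RPM with DMSO and at 31.9, 22.3, 19.998 and 23.7 RPM with CompE in P0 replicates 1 to 4. At P6 the DMSO libraries held 22.9, 14.8 and 17.7 RPM and the CompE libraries 25.4, 19.1 and 19.1 RPM. Treatments overlapped at both ages, with log2 changes of -0.13 (SE 0.17, edgeR adjusted p = 0.855) at P0 and 0.22 (SE 0.24, edgeR adjusted p = 1.00) at P6. The CompE library was the higher one in 1 of 4 pairs at P0 and in 3 of 3 at P6, and the difference of the responses was 0.36 (SE 0.28, edgeR adjusted p = 1.00). Between the ages the log2 change was -0.42 (SE 0.20, edgeR adjusted p = 0.150) with DMSO and -0.07 (SE 0.20, edgeR adjusted p = 0.844) with CompE.

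**Figure D4:**
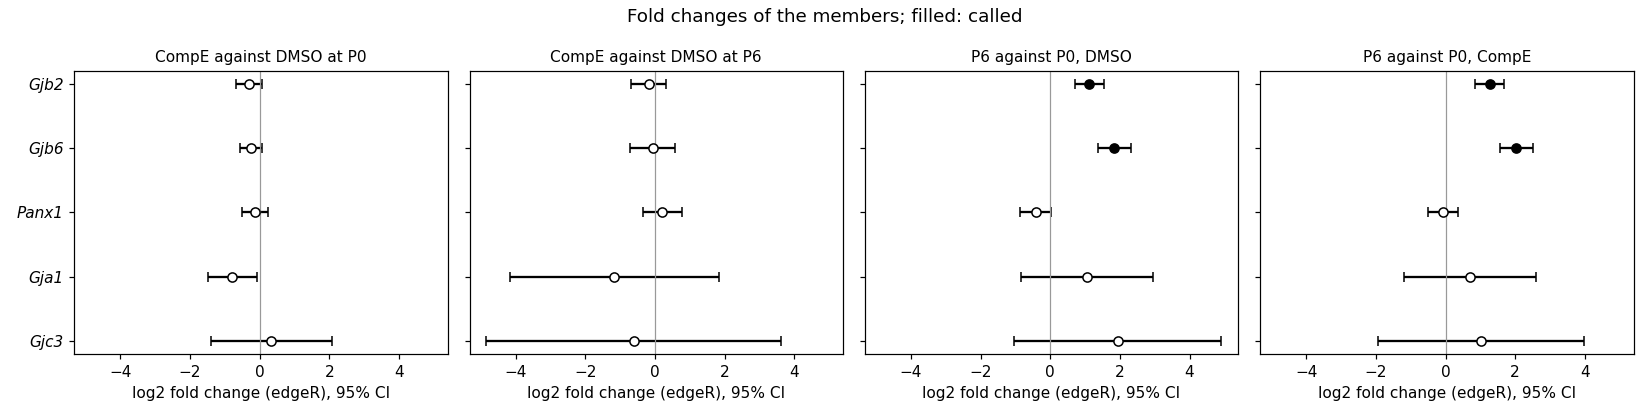
Log2 fold changes of the 5 members with 95% confidence intervals from edgeR (points, bars), in 4 comparisons, with called values as filled points. Filled points are those of Gjb2 and Gjb6 between the ages, and the widest intervals at P6 are those of Gja1 and Gjc3.

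At P6 Gja1 differed more between libraries of 1 group than between treatments. The DMSO libraries held 61.8, 0.396 and 12.6 RPM, from 1481, 11 and 520 counts, a 156-fold span. The CompE libraries held 18.3, 4.598 and 10.2 RPM. The CompE library was lower in 2 of 3 pairs and 11.6 times higher in the pair of replicate 2. The log2 change was -1.17 (SE 1.28, edgeR adjusted p = 1.00), and with the replicate number as a block it was 0.04 (SE 0.90, edgeR adjusted p = 0.994). Between the ages it was 1.06 (SE 0.88, edgeR adjusted p = 0.413) with DMSO and -0.89 (adjusted p = 0.499) when P6 DMSO replicate 1 was left out, so 1 library set its direction.

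Gjc3, a connexin known from myelinating glia, was near the limit of detection. It had 43, 6, 15 and 16 counts in P0 CompE and 0, 12, 23 and 20 in P0 DMSO replicates 1 to 4. At P6 the counts were 32, 0 and 52 with CompE and 82, 0 and 58 with DMSO. It was at 0 in 3 of 14 libraries, which allows up to 0.114 RPM in P0 DMSO replicate 1, 0.105 RPM in P6 CompE replicate 2 and 0.108 RPM in P6 DMSO replicate 2 (3 counts, counting error only). Both P6 libraries of replicate 2 were at 0. The log2 changes with CompE were 0.33 (SE 0.78, edgeR adjusted p = 0.931) at P0 and -0.61 (SE 1.80, edgeR adjusted p = 1.00) at P6, and no difference was detectable at this depth. The summed level of 6 glial markers was 31.3 to 102 RPM over the 14 libraries, with Mbp the most abundant, and its part in the Gjc3 values was not tested.

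Across the 23 connexin and pannexin genes, 15 were tested between the ages. In DMSO libraries 2 rose, 1 fell and 12 were not called, where 3.74% of all genes tested were called higher and 3.38% lower. The log2 change was above 0 for 8 and below 0 for 7, with a median of 0.62 against -0.05 over all genes. The gene that fell was Gjc1, from 40.5 RPM ± 9.48 (SD, n = 4) to 14.5 RPM ± 4.37 (SD, n = 3) with DMSO, a log2 change of -1.40 (SE 0.24, edgeR adjusted p = 0.00127). In CompE libraries the counts were likewise 2 higher and 1 lower, where 3.54% and 2.89% of all genes tested were called. Gjc1 changed by -1.25 (SE 0.24, edgeR adjusted p = 0.00276) in these libraries. There the log2 change was again above 0 for 8 and below 0 for 7, but the median was 0.09 against -0.03 over all genes.

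With CompE, 13 of the 23 were tested at P0 and 12 at P6, and none was called. Over all genes tested, 1.22% were called at P0 and 0% at P6. Gjb1 (connexin 32) had the lowest fold change at P6, at 1.20 RPM ± 1.17 (SD, n = 3) with DMSO and 0.192 RPM ± 0.179 (SD, n = 3) with CompE (log2 -2.62, SE 1.12, edgeR adjusted p = 1.00). Its CompE libraries held 2 to 10 counts. At P0 Gja3 (connexin 46) had the highest, at 1.51 RPM ± 0.368 and 2.38 RPM ± 1.42 (SD, n = 4 each, log2 0.64, SE 0.46, edgeR adjusted p = 0.656). Panx2 (pannexin 2) was at 2.50 RPM ± 0.664 and 2.48 RPM ± 0.307 (SD, n = 4 each).

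Of 10 genes of junction assembly and turnover, none was called with CompE at either age, against 1.22% of all genes at P0 and 0% at P6. Between the ages 1 fell with DMSO and 2 fell with CompE, where 3.38% and 2.89% of all genes tested were called lower, and the rest were not called. With DMSO it was Cdh1 (E-cadherin), at 1676 RPM ± 528 (SD, n = 4) and 617 RPM ± 228 (SD, n = 3), with a log2 change of -1.39 (SE 0.29, edgeR adjusted p = 0.00404). With CompE they were Dbn1 (drebrin), with a log2 change of -1.53 (SE 0.20, edgeR adjusted p = 0.000186), and Cdh2 (N-cadherin), with -1.05 (SE 0.23, edgeR adjusted p = 0.00649). At P0 Cdh1 had the lowest log2 change of this list with CompE (-0.79, SE 0.25, edgeR adjusted p = 0.152) and Cav1 (caveolin 1) the highest (0.32, SE 0.62, edgeR adjusted p = 0.909).

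Of 6 genes of ATP signalling, by which SCs respond to extracellular ATP, 3 rose between the ages with either treatment and none was called with CompE at either age. Of all genes tested, 3.74% were called higher between the ages with DMSO and 3.54% with CompE, and 1.22% were called with CompE at P0 and 0% at P6. P2ry1, a purinergic receptor coupled to calcium release, went from 39.6 RPM ± 14.4 (SD, n = 4) to 144 RPM ± 33.8 (SD, n = 3) with DMSO (log2 1.92, SE 0.30, edgeR adjusted p = 0.000583). P2rx2, an ATP-gated cation channel, went from 171 RPM ± 30.5 (SD, n = 4) to 472 RPM ± 115 (SD, n = 3) (log2 1.53, SE 0.21, edgeR adjusted p = 0.00028). Ano1, a calcium-activated chloride channel, went from 448 RPM ± 212 (SD, n = 4) to 1738 RPM ± 600 (SD, n = 3) (log2 2.02, SE 0.31, edgeR adjusted p = 0.000588). With CompE at P0 the list ran from Ano1 (log2 -0.22, SE 0.28, edgeR adjusted p = 0.846) to P2rx7 (0.28, SE 0.70, edgeR adjusted p = 0.935).

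Of 5 genes for uptake of potassium and glutamate, none was called in any of these comparisons. Over all genes tested, 1.22% were called with CompE at P0 and 0% at P6. Between the ages, 3.74% were called higher and 3.38% lower with DMSO, and 3.54% and 2.89% with CompE. With CompE at P0 the 5 genes ran from Kcnj10, an inward rectifier potassium channel (log2 -0.26, SE 0.78, edgeR adjusted p = 0.944), to Slc12a2, a sodium-potassium-chloride cotransporter (0.51, SE 0.17, edgeR adjusted p = 0.169). Between the ages with CompE, Slc12a2 had a log2 change of -0.97 (edgeR adjusted p = 0.00588), short of 2-fold.

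Within 250 kb of Gjb2 and Gjb6 the annotation places 5 other genes that are in the count tables. These 5 were looked at after the values of the pair had been seen. Cryl1, a crystallin lambda gene on the far side of Gjb6 at chr14:57274993-57398529, rose from 24.5 RPM to 102 RPM between the ages with DMSO (log2 2.13, SE 0.18, edgeR adjusted p = 4.84e-06). Zmym2, a zinc finger gene, was at 148 and 137 RPM (log2 -0.04, SE 0.11, edgeR adjusted p = 0.839). Gja3 was at 1.51 and 2.22 RPM (log2 0.62, SE 0.49, edgeR adjusted p = 0.383), and Gm4491 and the lincRNA B020004C17Rik were too low to be tested.

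Genes with the most similar pattern were ranked by Pearson correlation of log2 CPM over the 14 libraries, which share age, batch and depth, so the values are a description. For Gjb2 the first was Gjb6 (r = 0.983), followed by Sap18 (0.977) and Snx17 (0.977). Within the ages Gjb2 and Gjb6 correlated at 0.963 over 8 P0 libraries and 0.920 over 6 P6 libraries. For Gjb6 the first were Gal3st4 (0.985), Faah (0.984) and Psma3 (0.983), which were at 0.802, 0.524 and 0.594 within P0 and at 0.930, 0.943 and 0.890 within P6. For Gja1, Prps1 (0.843) and Slc16a1 (0.833) were among the first 3. For Gjc3 the first were Celsr2 (0.915), 4930402H24Rik (0.906) and Ubr4 (0.902), and for Panx1 Mfsd10 (0.843), Cpsf4 (0.839) and the purinergic receptor P2rx4 (0.835).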

How the data were processed

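Per the labels and the paper's methods, EGFP+ SCs were sorted and libraries made by full-length cDNA amplification without molecular identifiers. The authors trimmed reads with Trim Galore 0.6.0 and cutadapt 1.15 and aligned them to mm10 with STAR 2.7.0f (versions from the submitters' processing notes), and deposited raw counts per gene symbol, 1 table per age. Which annotation was counted, and whether strand was used, is not given in the sources used here. Groups, replicate numbers and batches came from the labels.

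RPM was each deposited count over the library total. RPKM divided RPM by the exon union of GENCODE M21 (GRCm38). Counts were fitted with edgeR 4.0.16 in R 4.3.3 (TMM, filterByExpr with a minimum count of 10, quasi-likelihood test), each age alone for CompE against DMSO and all 14 libraries together for the ages and the interaction. The threshold was a Benjamini-Hochberg adjusted p of 0.01 together with a 2-fold change. For single values, exact two-sided permutation of the libraries was used (scipy 1.17.1). The scripts were tested on simulated data.

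Same-numbered libraries shared a batch and were paired in the block. Their deviations from the group means correlated at 0.162 to 0.500 at P0 and 0.264 to 0.620 at P6. Libraries of different numbers were not compared in this way, so these values cannot show whether matched numbers are closer than unmatched ones. At P0 replicates 3 and 4 of both treatments were in the same batch, so the batch does not tell these pairs apart. Nothing in the labels says whether libraries came from separate litters, so p-values measure the spread between these samples. Alternatives were DESeq2 1.42.0, its size factors, no filter, a threshold of 0.05 without a fold, the replicate or batch block, other sets of libraries, other scaling, other gene lengths, and leaving out libraries or pairs. Leaving out pairs for the age comparisons was added after seeing the data. The genes named were the 5 members, other family genes averaging 1 RPM or more in a group, listed genes that were called or had the highest or lowest fold change of their list at P0, and the 3 genes most like each member among genes averaging 10 RPM or more. The members and lists were chosen with earlier results of these data known. Promoter sequences are from RefSeq, and all 5 members matched. Some genes that the rule names are not reported here.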

Additional observations from a re-analysis of the deposited data

Results flagged for a closer look

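One value stood apart from its group, among 12 groups of 4 libraries examined, where chance gives about 1 in 20 groups. The log2 ratio of Gjb6 to Gjb2 per kilobase was -2.64 in P0 DMSO replicate 3, above the other P0 DMSO libraries, which lay between -2.85 and -2.82.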

How the results depend on the processing

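Of 844 recomputed values, 780 kept their direction and their side of the threshold, or moved by less than the spread between libraries. The 5 members gave 0 calls for CompE at P0, at P6 and for the difference of the responses under every alternative run, and 2 calls between the ages in CompE libraries under all of them. Depth limits Gjc3 (0 to 82 counts), and Gja1 at P6 varied widely between libraries (11 to 1481 counts with DMSO).

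In DMSO libraries the calls between the ages went from 2 to 1, with Gjb2 lost, in a fit of the DMSO libraries alone (log2 1.13), without both libraries of P0 replicate 4 (1.03, adjusted p = 0.0105) and without both of P6 replicate 2 (0.93, under 2-fold). Leaving out single libraries gave 1 to 2 calls and 0.93 to 1.26 for Gjb2, the lowest without P6 DMSO replicate 2. The cause was not tested.

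The pairing changed no call of a member. With the replicate block or the batch block, which are the same at P6, Gja1 went from -1.17 to 0.0396 at P6, and its difference of responses from -0.36 to 0.85 (replicate block) and 0.84 (batch block), and its mean within-pair log2 ratio at P6 was 0.49. Over all genes the calls at P0 went from 195 to 350 with the replicate block, 334 with the batch block, 441 by DESeq2, 617 at a threshold of 0.05 without a fold and 117 with all 14 libraries in 1 fit. At P6 they went from 0 to 13 by DESeq2. For the difference of responses they went from 0 to 34 by DESeq2, 16 with the replicate block, 15 with the batch block, 2 at 0.05 and 1 with no filter. Between the ages with DMSO DESeq2 called 1994 genes against 1216, and edgeR 3840 at 0.05 and 727 in the DMSO libraries alone. With CompE it was 1854 by DESeq2 and 3759 at 0.05, against 1099. No block could be fitted between the ages, since each batch holds 1 age.

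Uncalled values changed sign when libraries were left out singly. For CompE at P0 Gjc3 ran from -0.0737 to 0.73. At P6 Gja1 ran from -1.74 to 0.80, Gjb2 from -0.30 to 0.0115, Gjb6 from -0.36 to 0.18 and Gjc3 from -1.32 to 0.60. For the difference of responses Gja1 ran from -0.93 to 1.59, Gjb6 from -0.11 to 0.45 and Gjc3 from -1.62 to 0.27. Between the ages Gja1 ran from -0.89 to 1.64 with DMSO and Panx1 from -0.21 to 0.0533 with CompE. As RPM differences of CompE from DMSO, Gjc3 ran from -0.00789 to 0.236 and Panx1 from -4.05 to 0.602 at P0, and at P6 Gja1 ran from -26.2 to 4.52, Gjb6 from -182 to 72.7 and Gjc3 from -1.36 to 0.352. The log2 ratio of Gjb6 to Gjb2 with CompE at P6 ran from -0.0377 to 0.18.

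Signs also changed when both libraries of one number were left out. Without P0 replicate 1 Gjc3 was at -0.44 with CompE at P0 and Panx1 at 0.0461 between the ages with CompE. Without P6 replicate 1 Gja1 was at 0.23 and Gjc3 at 0.42 with CompE at P6, their differences of responses were 1.02 and 0.10, and Gja1 was at -0.89 between the ages with DMSO. Without P6 replicate 3 Panx1 was at 0.0370 between the ages with CompE.

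With the longest transcript as the length, the shares of the connexin sum in P0 DMSO, P0 CompE, P6 DMSO and P6 CompE libraries were 82.4%, 81.9%, 76.2% and 75.3% for Gjb2, 15.2%, 15.8%, 22.8% and 24.1% for Gjb6, and 0.400%, 0.284%, 0.377% and 0.178% for Gja1. The levels became 127, 109.9, 428 and 404 RPKM for Gjb6 and 3.16, 1.88, 6.41 and 2.84 RPKM for Gja1, whose exon union holds 10257 bases and longest transcript 3889.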
